A study of Mus musculus with 8 samples.

Results

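The transcripts of 7 genes that differed strongly after RAS loss in mouse embryonic stem cells are described here: Aqp3, Cidea, Slc39a14, Lrrc15, Ncam1, Cdhr1 and Pga5. They were chosen by name from earlier results on these arrays, mainly for the size of their change after 4-hydroxytamoxifen (OHT) in ERF wild type cells, and Aqp3 also for its change in the labelled ERF knockout. All probes whose RefSeq accession belongs to a chosen gene were taken, which gave 9 probes of 55681 on the array and 7 genes of 21150 that could be named. All 7 were among the 15178 genes tested, a class limited to genes with a probe well above background in both samples of 1 or more of the groups. The set was labelled as strong risers, and 6 of the 7 were higher after OHT. Slc39a14 went the other way: its only probe was lower after OHT in all 4 cell pools.

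The cells were embryonic stem cells that lacked H-Ras and N-Ras (H-Ras-/- and N-Ras-/-), carried K-Raslox/lox and the RERTert/ert alleles, were grown on gelatin with serum and leukaemia inhibitory factor and were ERF-WT or ERF-KO. Each of the 4 groups (ERF-WT untreated, ERF-WT with OHT, ERF-KO untreated, ERF-KO with OHT) had 2 arrays, so all groups share the loss of H-Ras and N-Ras. OHT was given for at least 2 days to activate the Cre recombinase of the RERTert allele and delete K-Ras, the last RAS gene. Each sample mixed 2 clones, and every such pool was profiled with and without OHT: pools A1 and B1 were ERF-WT, and pools A2 and B2 were labelled ERF-KO. No group received OHT while keeping K-Ras, so effects of OHT itself and of RAS loss cannot be told apart in any comparison below. In bulk RNA, fewer cells of a type and less RNA per cell cannot be told apart either.

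RAS proteins relay growth factor signals to the kinase ERK. ERF is an ETS-domain repressor that ERK phosphorylates and keeps out of the nucleus, so that loss of RAS signalling lets it reach its target genes. In stem cells this pathway acts in the exit from self-renewal towards differentiation. The chosen genes belong to unrelated families: a water and glycerol channel (Aqp3), a lipid droplet protein (Cidea), a metal ion importer (Slc39a14), 3 cell surface or adhesion proteins (Lrrc15, Ncam1, Cdhr1) and a digestive protease precursor (Pga5).

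RNA was measured on 8 one-colour Agilent arrays of 62976 spots, of which 54.0% to 63.6% read well above background and 0 were saturated. Precision is limited by how few arrays there are. The labels call the 2 samples of a group biological replicates, and p-values of the fit on group means measure the spread between such pools. Those of pool differences and of fits with the pool as a block measure the spread of the OHT change between pools instead, so a difference between 2 pools has no replicate pool behind it. Both pool B1 arrays lay on a second slide, scanned in a second session, and the other 6 arrays on the first. Between 0.008% and 2.38% of an array's spots lay in small dark areas, and no spot of the 9 probes on any array did. Erf itself read 4.91 and 5.21 in untreated and 4.79 and 4.73 in OHT-treated ERF-WT cells (log2 signal relative to the array's 75th percentile, the scale used for all log2 levels below). In the pools labelled ERF-KO it was lower in A2, at 3.25 untreated and 3.73 with OHT, but 5.42 and 5.13 in B2, within or above the wild type range. Pool B2 is therefore ERF-KO by its label only. Where the probe lies relative to the disrupted part of Erf was not tested. All 10 embryonic stem cell markers (among them Pou5f1, Sox2 and Nanog) read well above background on all 8 arrays.

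Promoters of 3 of the 7 genes were found in the RefSeq table for build GRCm38.p6. They are shown so that the start sites of genes that were higher after OHT, but whose proteins are unrelated, can be compared. Each runs 5′ to 3′ on the gene's own strand (minus for all 3) from 250 bases before to 50 bases after the start, and the capitals mark the only match to any of 6 motifs searched on both strands.

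Aqp3, chr4:41098134-41098433: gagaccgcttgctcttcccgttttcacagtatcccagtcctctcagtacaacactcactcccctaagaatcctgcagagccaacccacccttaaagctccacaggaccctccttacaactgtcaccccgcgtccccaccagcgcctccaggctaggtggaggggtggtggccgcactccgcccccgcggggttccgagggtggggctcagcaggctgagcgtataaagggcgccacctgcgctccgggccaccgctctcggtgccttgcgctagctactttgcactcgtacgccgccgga

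Lrrc15, chr16:30283205-30283504: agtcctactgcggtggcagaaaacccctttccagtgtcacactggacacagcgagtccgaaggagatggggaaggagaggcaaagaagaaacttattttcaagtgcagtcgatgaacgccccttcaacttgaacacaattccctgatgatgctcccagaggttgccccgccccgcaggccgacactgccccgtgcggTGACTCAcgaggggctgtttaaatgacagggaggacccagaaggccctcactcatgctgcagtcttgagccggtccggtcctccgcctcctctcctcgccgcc

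Cdhr1, chr14:37098298-37098597: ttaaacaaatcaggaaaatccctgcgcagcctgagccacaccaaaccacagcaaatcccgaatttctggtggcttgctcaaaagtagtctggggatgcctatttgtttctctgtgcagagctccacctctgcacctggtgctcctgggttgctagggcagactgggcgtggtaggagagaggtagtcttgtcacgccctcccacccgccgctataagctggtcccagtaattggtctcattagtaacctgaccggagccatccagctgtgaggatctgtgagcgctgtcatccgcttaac

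The capitals in the Lrrc15 promoter are TGACTCA, a match to the AP-1 motif TGANTCA that starts at base -53 relative to the start site. That motif occurs in 7.8% of all 32851 promoters of this length. None of the 3 windows held the ETS motif CGGAAG (16.9% of all promoters), the E-box CACGTG (7.2%), the STAT motif TTCNNNGAA (8.3%), the nuclear receptor motif AAGGTCA (4.7%) or the TCF/LEF motif CTTTGAT (3.7%). A missing match says only that these letters are not in these 300 bases. The 3 promoters differed in GC content. Aqp3 had 64.0% G and C with 21 CpG dinucleotides, above the upper quartile of all promoters (61.7%), Lrrc15 had 58.7% with 16, and Cdhr1 had 54.0% with 9, close to the median of 52.7%.

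Aqp3 encodes aquaglyceroporin 3, which passes water, glycerol and hydrogen peroxide across the plasma membrane. Its probe (A_51_P245090) read 1467 in pool A1 and 1208 in pool B1 before OHT, and 13530 and 8501 after it (processed signal intensity of the scanner software, before scaling between arrays; changes and folds are after it). In the labelled knockout the same probe read 611 in A2 and 1366 in B2 untreated, and 1810 and 5212 with OHT. The OHT arrays lay above the untreated arrays in both genotypes, and both knockout OHT arrays stayed below both wild type ones. The change was 2.91 and 2.70 on the log2 scale in A1 and B1 (7.50-fold and 6.51-fold), a mean of 2.81 ± 0.14 (SD, n = 2 pools). It was 1.65 in A2 and 1.88 in B2 (3.15-fold and 3.68-fold), a mean of 1.77 ± 0.16. The labelled knockout thus kept 63.0% of the wild type log2 change. These changes chose the gene and are given without a test.

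Cidea belongs to the CIDE family, which promotes the fusion and growth of lipid droplets and is known from brown fat. The Cidea probe (A_51_P199168) read 304 and 232 in untreated A1 and B1, against 1379 and 989 after OHT. In the labelled knockout it read 274 and 221 untreated, and 381 and 365 with OHT. All 4 knockout readings sat close to the untreated wild type level. The wild type pools were higher after OHT by 1.89 and 1.98 on the log2 scale (mean 1.93 ± 0.07, SD, n = 2, or 3.82-fold). The change in the labelled knockout was 0.57 in A2 and 0.67 in B2 (mean 0.62 ± 0.08, 1.54-fold), or 32.0% of the wild type change.

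Slc39a14 encodes ZIP14, which carries zinc, iron and manganese into the cell. Its probe (A_55_P2013760, accession NM_001135151) read 2478 and 1699 in untreated A1 and B1, and 1095 and 608 after OHT. The labelled knockout read 3052 and 2862 untreated and 1867 and 2402 with OHT. The knockout stayed above the wild type on both sides of the treatment, and all 4 pools were lower with OHT. The change was -1.48 and -1.59 in A1 and B1 (mean -1.54 ± 0.08, SD, n = 2, a 2.90-fold lower level). It was -0.62 in A2 and -0.31 in B2 (mean -0.46 ± 0.22, 1.38-fold lower), which is 30.2% of the wild type change. No other probe of the array carried an accession of Slc39a14, and which of its transcript forms this probe detects was not tested.

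Lrrc15 is a leucine-rich repeat membrane protein found on mesenchymal cells. The readings of its probe (A_52_P90805) were 162 and 138 in untreated A1 and B1, and 1436 and 829 after OHT. In the labelled knockout they were 166 and 125 untreated, and 419 and 371 with OHT. Untreated pools of both genotypes overlapped, while the OHT arrays of the 2 genotypes were apart. The wild type changes of 2.85 and 2.48 gave a mean of 2.67 ± 0.27 (SD, n = 2, 6.34-fold). The changes of 1.42 and 1.51 in A2 and B2 gave 1.47 ± 0.06 (2.77-fold), or 55.1% of the wild type change.

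Ncam1 encodes the neural cell adhesion molecule, an immunoglobulin-family protein that binds itself on neighbouring cells. Of its 3 probes the brightest (A_51_P380309, accession NM_001113204) read 667 and 404 in untreated A1 and B1, and 2936 and 1858 after OHT. In the labelled knockout it read 1085 and 521 untreated, and 1702 and 1447 with OHT. All 4 pools were higher after OHT, and A2 started from the highest untreated level. The wild type change was 1.84 in A1 and 2.09 in B1 (mean 1.97 ± 0.18, SD, n = 2, 3.91-fold). In A2 it was 0.74 and in B2 1.42 (mean 1.08 ± 0.48, 2.11-fold), 54.9% of the wild type change. The remaining 2 probes carry accession NM_010875. Probe A_55_P2028942 read 79.2 and 72.5 in untreated ERF-WT, 261 and 167 with OHT, 103 and 94.5 in the untreated labelled knockout, and 130 and 211 with OHT. Its mean change was 1.26 ± 0.24 (2.39-fold) in the wild type and 0.76 ± 0.49 in the knockout, which kept 60.8%. With normexp background correction the rise was smaller in all 4 pools, so the share kept depends on the correction. There the log2 level of this probe went from -1.98 to -1.15 in A1 and from -1.39 to -1.14 in B1. In the labelled knockout it went from -1.79 to -1.48 in A2 and from -1.84 to -1.04 in B2. Probe A_55_P2050602 was dim, at 4.1 to 49.9, and read well above background on 5 of 8 arrays, neither untreated wild type array among them. For that probe the wild type level on the processed signal was at least 1.59-fold higher with OHT. The lower side was the dimmest signal that counted as well above background on each array or the probe's own, whichever was higher. This bound did not hold with normexp. There the log2 level went from -2.771 to -2.773 in A1 and from -2.123 to -2.324 in B1, so neither wild type pool rose. Without normexp all 3 probes were higher with OHT in all 4 pools, and they differed in size.

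**Figure D1:**
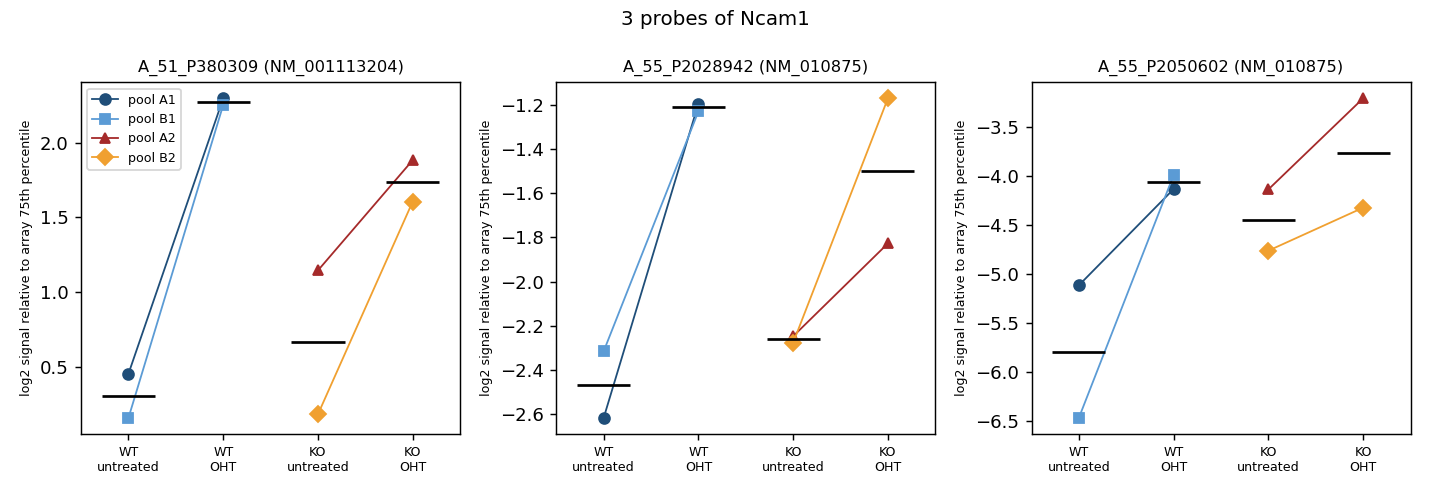
Log2 signal relative to each array's 75th percentile (vertical axis) of the 3 Ncam1 probes in the 4 groups (horizontal axis), with a line joining each pool's untreated and OHT array and a black bar at the mean of 2 arrays. Every line goes up, and the probe on the right lies near background, with readings of 4.1 to 49.9.

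Cdhr1 is a cadherin-related membrane protein best known from photoreceptor cells. Its probe (A_51_P173114) read 97.2 in A1 and 21.9 in B1 untreated, and 779 and 222 after OHT. The labelled knockout read 93.2 and 18.9 untreated, and 169 and 133 with OHT. The A pools were brighter than the B pools in every group, and in B2 the change was larger than in A1. It was 2.70 and 3.23 in A1 and B1 (mean 2.97 ± 0.37, SD, n = 2, 7.81-fold), and 0.95 and 2.76 in A2 and B2 (mean 1.85 ± 1.28, 3.62-fold). The mean kept in the labelled knockout, 62.5%, therefore covers 2 pools that behaved differently. These are dim readings: with normexp background correction the mean change was 1.58 in the wild type and 0.93 in the knockout.

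Pga5 encodes a pepsinogen, the inactive precursor of the stomach protease pepsin. The probe (A_51_P480861) read 112 and 118 in untreated A1 and B1, and 837 and 847 after OHT. In the labelled knockout the pools were far apart, with 28.5 in A2 and 117 in B2 untreated, and 66.2 and 486 with OHT. A2 with OHT stayed below every wild type reading, whereas B2 without OHT was at the untreated wild type level. The change was 2.60 and 2.74 in A1 and B1 (mean 2.67 ± 0.09, SD, n = 2, 6.37-fold), and 1.30 and 2.00 in A2 and B2 (mean 1.65 ± 0.49, 3.14-fold), which is 61.8% of the wild type change. With normexp the means were 2.01 and 0.94.

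**Figure D2:**
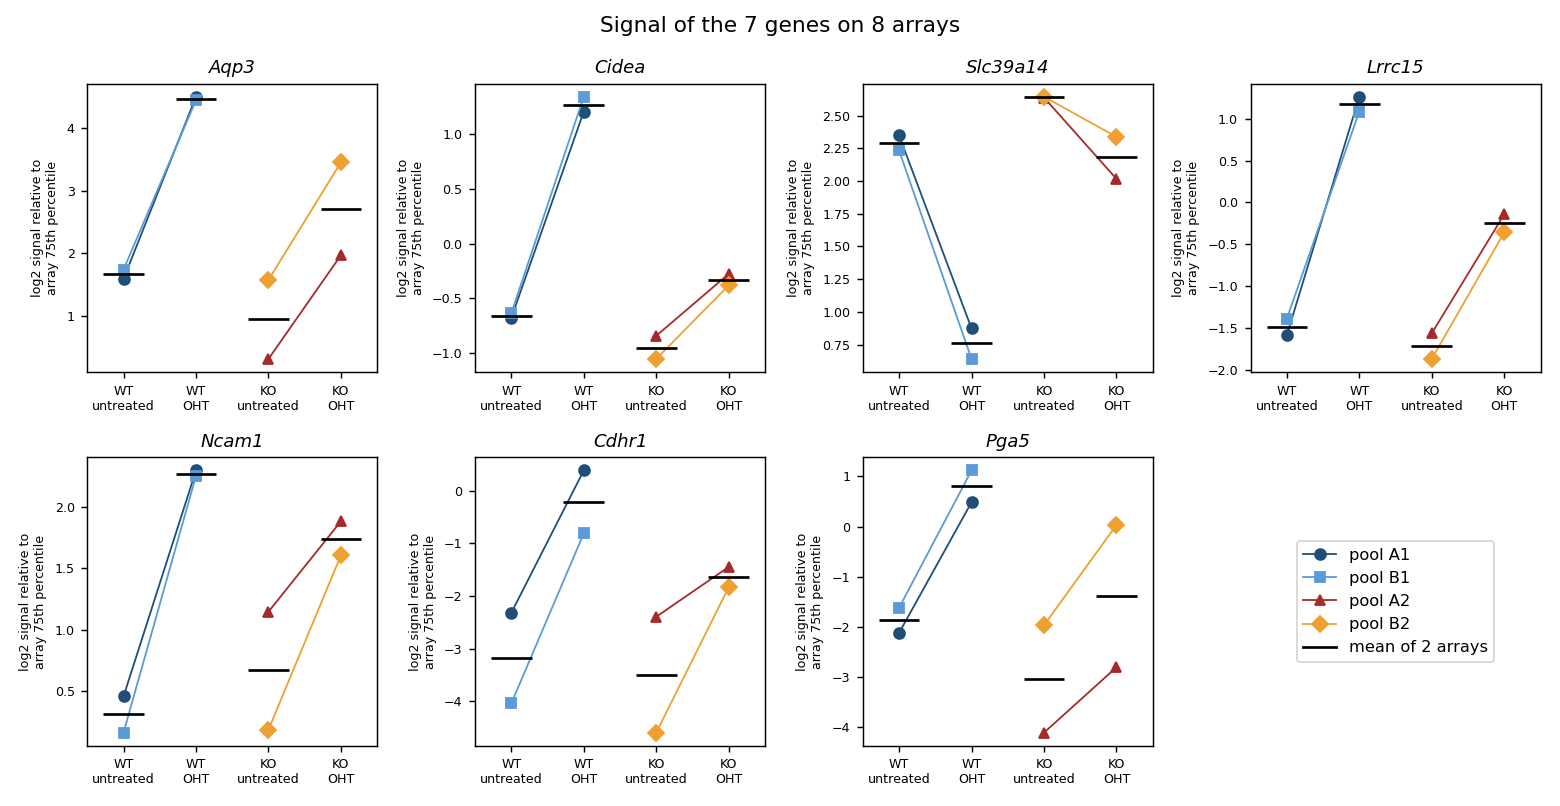
Log2 signal relative to the array's 75th percentile (vertical axis) of the 7 genes, 1 probe each, in the 4 groups (horizontal axis), with a symbol and line for each pool and a black bar at the mean of 2 arrays. Aqp3, Cidea, Lrrc15, Ncam1, Cdhr1 and Pga5 go up with OHT in all 4 pools and Slc39a14 goes down, with smaller steps in A2 and B2 except for Cdhr1 in B2 (2.76 against 2.70 in A1).

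Among 15079 genes measured on all arrays, 216 (1.43%) were at least 2-fold higher in both wild type pools and 246 (1.63%) at least 2-fold lower. The 6 genes that were higher and Slc39a14 fall in these classes, as the way they were chosen requires. Ordered by the smaller of the 2 wild type pool changes, Cdhr1 and Aqp3 shared place 5, Pga5 stood at 9, Lrrc15 at 12, Cidea at 29 and Ncam1 at 32, and Slc39a14 stood at 85 among falling genes. By the same measure in the labelled knockout Aqp3 was at 20, Lrrc15 at 35, Pga5 at 49, Cdhr1 at 137, Ncam1 at 313 and Cidea at 621, with Slc39a14 at 830 among falling genes. Median share kept over the 216 genes was 59.1% (quartiles 40.2% and 73.7%). Aqp3, Cdhr1 and Pga5 lay just above that median, Lrrc15 and Ncam1 just below it, and Cidea under the lower quartile. Over the 246 lower genes the median was 54.6% (quartiles 26.8% and 76.5%), with Slc39a14 at 30.2%.

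Both knockout changes were smaller than both wild type changes for 5 of the 6 higher genes, all but Cdhr1, against 70.4% of the 216 genes. The mean difference, labelled knockout minus wild type, was -1.04 for Aqp3, -1.31 for Cidea, -1.20 for Lrrc15, -0.89 for Ncam1, -1.11 for Cdhr1 and -1.02 for Pga5. For Slc39a14 it was 1.07, and both of its knockout changes were smaller falls than in the wild type, as for 65.9% of the 246 lower genes. A smaller change in the labelled knockout was thus common among all genes this high or low after OHT. All 6 higher genes were also higher in both knockout pools, as were 88.0% of the 216, and Slc39a14 was lower in both, as were 72.8% of the 246. At least 2-fold higher in both knockout pools were Aqp3, Lrrc15 and Pga5, against 18.1% of the 216 genes and 0.729% of all genes. The wild type change chose the genes, so these differences are described and were not tested.

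**Figure D3:**
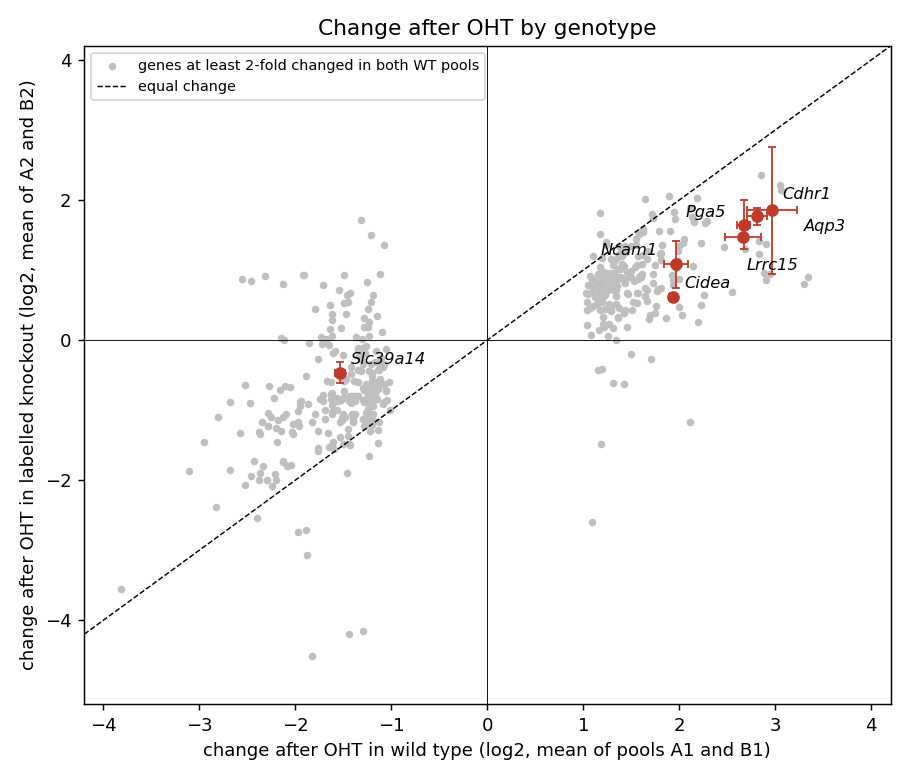
Mean log2 change after OHT in the wild type (horizontal axis) against that in the labelled knockout (vertical axis), with the 7 genes in red, bars spanning the 2 pools, and in grey the genes at least 2-fold higher (216) or lower (246) in both wild type pools. The 7 genes lie between the horizontal zero line and the dashed line of equal change, Cidea (0.62) and Slc39a14 (-0.46) nearest to zero.

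The change after OHT in the labelled knockout was tested for the 6 genes other than Aqp3. With limma on the 4 group means, 0 of 6 passed an adjusted p of 0.05, and neither did any of the 15178 genes (0.0%), of which 611 had an unadjusted p under 0.05. Lrrc15 came closest, at 1.47 ± 0.20 (SE, limma adjusted p = 0.345, unadjusted p = 0.000413). Unadjusted limma p-values were 0.0116 for Cidea, 0.0208 for Ncam1, 0.0544 for Slc39a14, 0.0911 for Cdhr1 and 0.181 for Pga5. With the pool as a block, which removes standing differences between A2 and B2, the limma adjusted p was between 0.159 and 0.21 for these 6. A paired limma fit that also left out low-signal spots and let the variance follow the signal called 1199 genes (7.9%), 694 of them higher (4.57%) and 505 lower (3.33%). In this knockout contrast Lrrc15 (limma adjusted p = 0.00481), Pga5 (0.00862), Ncam1 (0.0229) and Cidea (0.027) rose and Slc39a14 fell (0.0446). For the wild type, where the 7 genes are not tested, the same fit called 2248 genes (14.8%), 1061 of them higher (6.99%). Cdhr1 did not pass in the knockout (0.0819), and passed when small dark areas were left out instead (limma adjusted p = 0.0409), a fit added after the data were seen that called 10.2% of genes (6.0% higher and 4.16% lower) and in which the other 5 passed too. Counted without a model, both OHT arrays lay above both untreated arrays of the labelled knockout for Aqp3, Cidea, Lrrc15, Ncam1 and Cdhr1, against 16.4% of genes, and below them for Slc39a14, against 10.1%. Pga5 overlapped because A2 was lower than B2 throughout.

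The genotypes were then compared over both treatments together. Only the errors of this contrast are uncorrelated with those of the OHT changes. Its value includes the OHT arrays, so a smaller OHT change in the labelled knockout moves it too. The wild type change chose the genes, so the direction of this contrast is not separate evidence on genotype. Labelled knockout minus wild type was -1.24 ± 0.42 (log2 ± SE) for Aqp3, -0.95 ± 0.12 for Cidea, -0.83 ± 0.14 for Lrrc15, -0.87 ± 0.65 for Cdhr1 and -1.68 ± 0.77 for Pga5. It was 0.89 ± 0.14 for Slc39a14 and -0.09 ± 0.24 for Ncam1, the only value of the 7 smaller than its error. With the slide as a block Cdhr1 was at -1.60. Leaving out 1 array in turn gave -1.42 (without untreated A2) to -0.32 (without untreated B2) for Cdhr1, -2.38 (without OHT B2) to -0.97 (without OHT A2) for Pga5 and -1.61 to -0.87 (the same 2 arrays) for Aqp3. None of the 7 passed (limma adjusted p = 0.93 for 6 and 0.963 for Ncam1), nor did any of the 15178 genes (0.0%), of which 415 had an unadjusted p under 0.05. The smallest unadjusted limma p-values were 0.000274 for Cidea, 0.000748 for Slc39a14 and 0.00133 for Lrrc15. That fit takes the untreated and OHT arrays of a pool as independent. With the pool as a random block, unadjusted limma p-values were 0.00173 for Cidea, 0.00855 for Slc39a14 and 0.0158 for Lrrc15. Their errors grew to 0.169, 0.224 and 0.242, and that of Cdhr1 (1.05) exceeded its value. In that fit 66 genes had an unadjusted p under 0.05, and none passed after adjustment. Before OHT both labelled knockout pools were below both wild type pools for Aqp3 and Cidea, against 11.5% of genes, and above them for Slc39a14, against 9.4%. For Aqp3 the gap was narrow, with log2 levels of 1.577 in B2 and 1.593 in A1, while A2 was at 0.317. With normexp untreated B2 (1.448) was above untreated A1 (1.404) for Aqp3. The untreated arrays of the other 4 genes overlapped between genotypes. After OHT all 6 higher genes were below the wild type in both knockout pools (8.0% of genes) and Slc39a14 was above (16.0%), but this set of values includes the arrays that chose them.

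The pools labelled ERF-KO differed for 2 of the 7 genes, near the 29.6% of all genes passing this test (17.2% as lower in A2). Both were lower in A2: A2 minus B2 was -1.37 ± 0.11 for Aqp3 (log2 ± SE, limma adjusted p = 0.015) and -2.49 ± 0.20 for Pga5 (limma adjusted p = 0.0154). The pools differed in the same direction before and after OHT, so Aqp3 in A2 with OHT (log2 level 1.97) was little above B2 without it (1.58). Both pools lay on the same slide. A2 is also the pool with the lower Erf signal, and the part of Erf in this difference was not tested. The other 5 genes did not pass: A2 minus B2 was 1.29 for Cdhr1 (limma adjusted p = 0.151), 0.62 for Ncam1 (0.112), 0.26 for Lrrc15 (0.204), 0.16 for Cidea (0.217) and -0.16 for Slc39a14 (0.334). Leaving out any of the 4 wild type arrays, which carry part of the estimate of the spread, took both calls to a limma adjusted p of 0.0867. Without either OHT array of the labelled knockout Aqp3 was at 0.0519, and with normexp the Pga5 difference shrank to -1.42 (limma adjusted p = 0.0282).

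Between wild type pools A1 and B1 none of the 7 passed, against 4.92% of all genes (limma; 2.44% as higher in A1). A1 minus B1 was 1.46 ± 0.52 for Cdhr1 (SE, limma adjusted p = 0.161), the largest of the 7, and -0.57 ± 0.20 for Pga5 (0.163). With normexp the Cdhr1 difference was 0.53 here and 0.51 for A2 minus B2. For Aqp3, Lrrc15 and Cidea the pools were within 0.09 of each other. B1 also lay on another slide than A1, so pool and slide cannot be told apart here.

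**Figure D4:**
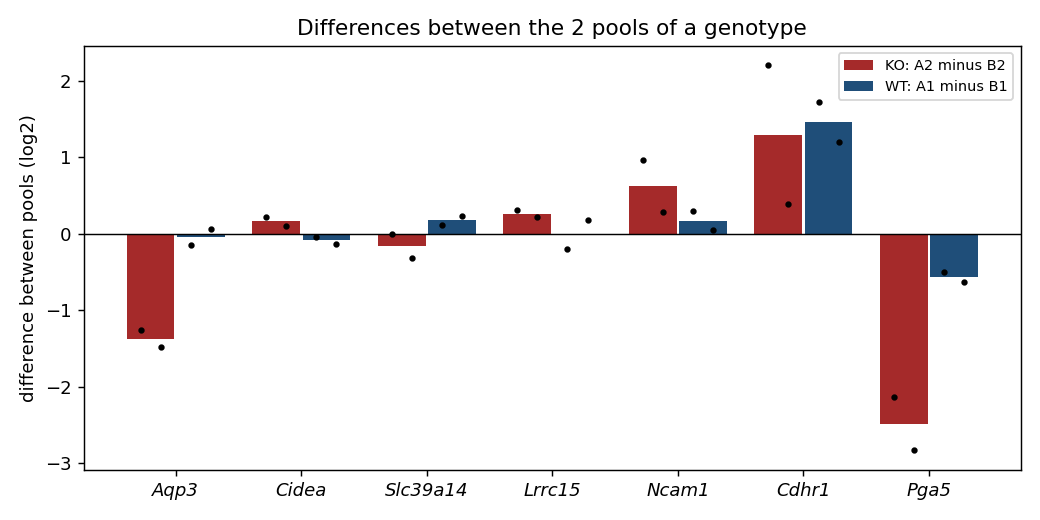
Log2 difference between the 2 pools of a genotype (vertical axis) for the 7 genes (horizontal axis), with bars at the mean of the untreated and OHT differences and dots at each of them. Aqp3 (-1.37) and Pga5 (-2.49) have the red bars, A2 minus B2, that passed the test, and Cdhr1 has the largest blue bar, A1 minus B1 (1.46).

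The 7 genes did not follow a single profile over the 8 arrays. Pearson correlations here describe 8 arrays that share groups, pools and slides, and carry no test. Cidea and Slc39a14 were almost mirror images (r = -0.991), and Cidea and Lrrc15 ran together (0.959). Aqp3 and Pga5, which shared the low level in A2, had r = 0.96, and Ncam1 and Cdhr1 had 0.923. Pga5 and Cdhr1 were the least alike of the 6 higher genes, at 0.505. Among 5039 genes above background on all arrays with a range of at least 1 log2 unit, Urgcp (0.996) and Hs6st1 (0.989), a heparan sulfate sulfotransferase, were most like Lrrc15. Adap1 and Coro1b (both 0.989) were most like Aqp3, Oas1a (0.983) and Brpf3 (0.978) most like Cidea, and Smox (0.995) and Fam169b (0.985) most like Ncam1. Serping1 (0.983) and Ifitm1 (0.975) came closest to Cdhr1, Slc25a20 (0.989) and Rpp25 (0.985) to Pga5, and Vsig10 (0.98) and Ddx58 (0.954) to Slc39a14. Likeness in profile did not mean likeness in size. The wild type change of Adap1 was 1.18 and that of Coro1b 0.69, against 2.81 for Aqp3, while that of Fam169b was 2.14, against 1.97 for Ncam1.

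Relatives of the 7 genes were mixed in direction. None of the tested relatives passed the limma test after OHT in either genotype, where 923 genes had an unadjusted p under 0.05 in the wild type and 0 (0.0%) passed. Of 8 other aquaporins tested, 4 were higher and 4 lower in the wild type, with a median of -0.04, close to the median of -0.03 over all genes. Knockout values were higher for 3 and lower for 5. Aqp2 had the highest wild type value (0.40) and Aqp6 the lowest (-0.63). Their spots on the OHT array of B2 lay in a dark area and were not well above background, so that Aqp2, at 0.84 in A2 and -2.92 in B2, counts as lower in the knockout through that spot. Of 18 other lipid droplet genes 12 were higher in the wild type (median 0.09) and 13 in the knockout (median 0.12). Dgat2 led them with 2.73, but its pools were at 6.58 and -1.12 and its spot on the untreated A1 array lay in a dark area. Hilpda had the lowest value, -0.38. Among 27 other zinc and iron transport genes 10 were higher and 17 lower in the wild type (median -0.09), from Slc39a3, a zinc importer, at 0.68 to Slc40a1, the iron exporter ferroportin, at -1.38. Slc40a1 was below zero in all 4 pools, at -1.01 and -1.75 in the wild type and -0.63 and -1.49 in the labelled knockout. In the knockout 15 of the 27 were higher (median 0.06).

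For comparison with the families above and below, 46.5% of all genes tested were higher in the wild type and 55.4% in the knockout. Of 17 other leucine-rich repeat genes 9 were higher in the wild type (median 0.03) and 13 in the knockout (median 0.27), with Lrrc4 the lowest in the wild type at -0.80. Lrtm2 ranked highest, but its probe was well above background on 3 of 8 arrays and not on either untreated wild type array, so its value is not given. Of 18 other cadherins and protocadherins 8 were higher in the wild type (median -0.12) and 11 in the knockout (median 0.09). Pcdh8 was the lowest at -2.02 (-0.95 in A1 and -3.10 in B1), but its OHT array of B1 was not well above background, and Pcdh1 the highest at 1.30, with its untreated A1 spot in a dark area. Of 10 other immunoglobulin-type adhesion genes 6 were higher in the wild type (median 0.05) and 8 in the knockout (median 0.32), with wild type values from Cntn1 at 0.58 to L1cam at -0.91. The pool B1 part of both is imprecise: Cntn1 was not well above background on either B1 array, and L1cam was not on the B1 array with OHT. Of 7 other aspartic proteases 6 were higher in each genotype (median 0.19 in the wild type and 0.36 in the knockout, where the median over all genes was 0.04). Ctsd, the lysosomal cathepsin D, stood at 1.98 with pools at 3.63 and 0.34 and a dark untreated A1 spot, and Ren1, renin, was lowest at -0.32.

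Of the 14 genes next to the 7 on their chromosomes, 8 were within 0.32 of zero in the wild type. The neighbours of Aqp3 were at -0.14 (Aqp7, another aquaglyceroporin) and -0.09 (Nol6) in the wild type, those of Cidea at -0.14 (Impa2) and 0.08 (Tubb6), and those of Cdhr1 at 0.32 (Ccser2) and 0.25 (2610528A11Rik). Around Lrrc15, Hes1, a Notch target, was at 0.60 and Atp13a3 at 0.13. The genes beside Ncam1 (Ttc12 at 0.70, Plet1 at 0.77) and beside Pga5 (Vwce at 0.58, Vps37c at 0.61) were all above zero. Beside Slc39a14, Ppp3cc was at -0.06 and Piwil2, a germline gene of the piRNA pathway, at -1.25. Knockout values ran from -0.26 (Nol6) to 1.06 (Aqp7), with Hes1 at 0.99, and the untreated A2 array of Aqp7 was not well above background. None of the 14 neighbours passed the limma test in either genotype.

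Markers of cell types in which some of these proteins are best known were read on the same arrays. For gastric cells, none of 9 markers was above background on all 8 arrays, Gkn1, Gkn2, Tff2 and Chia1 were not on any, and their summed level (times the 75th percentile of the array) was 0.281 to 0.343 untreated and 0.239 to 0.330 with OHT in the wild type. It was 0.197 to 0.280 and 0.121 to 0.300 in the knockout. Brown fat markers were above background on all arrays for 2 of 10 genes, with Cox8b, Dio2 and Ppargc1a below it on all. Their sum in the wild type was 6.22 to 8.40 untreated and 10.6 to 14.5 with OHT, higher on both OHT arrays, as was Cidea. In the knockout it was 4.67 to 8.57 untreated and 7.20 to 10.9 with OHT. Of 6 brown fat genes tested, 3 were higher in the wild type (median 0.17) and 4 in the knockout (median 0.26). The wild type sum thus rose without a common direction of its genes. The part of brown fat markers in the Cidea result was not tested.

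Other marker lists moved as follows. The sum of 12 neural markers was 31.4 to 40.2 untreated and 44.2 to 48.6 with OHT in the wild type, and 32.7 to 39.0 and 41.3 to 43.4 in the knockout, with 10 above background on all arrays and Neurog2 on none, alongside Ncam1. Fibroblast markers, beside Lrrc15, summed to 25.1 to 46.0 and 27.5 to 51.7 in the wild type and to 33.4 to 39.8 and 38.4 to 56.5 in the knockout, with 10 of 12 above background on all arrays and Lum on none. Epidermal markers, beside Aqp3, summed to 7.89 to 17.7 and 7.75 to 15.1 in the wild type and to 7.62 to 21.3 and 7.64 to 21.1 in the knockout, with 5 of 10 above background on all arrays and Dsg3 and Krt1 on none. The ranges with and without OHT overlapped for fibroblast and epidermal markers in both genotypes, and did not overlap for neural markers in either. These ranges do not pair the arrays of a pool, so an overlap does not show that the sum stayed the same. Both ends of the fibroblast range were higher with OHT in both genotypes. Both ends of the epidermal range were lower with OHT in the wild type only. By direction, 7 of 10 neural, 10 of 11 fibroblast and 3 of 8 epidermal genes tested were higher in each genotype. Over all genes tested 46.5% were higher in the wild type and 55.4% in the knockout. The part of other cell types in the Ncam1, Lrrc15 and Aqp3 results was not tested. Primitive endoderm markers were 21.9 to 40.1 untreated and 33.2 to 54.8 with OHT in the wild type, and 16.7 to 24.4 and 22.4 to 33.6 in the knockout (8 of 12 above background throughout, Afp and Apoa1 on no array), and trophoblast markers were 24.2 to 33.0, 22.9 to 27.7, 17.0 to 41.6 and 16.9 to 47.4 in the same order (7 of 12, Elf5 and Tpbpa on no array). Of 9 primitive endoderm genes tested 4 were higher in the wild type and 5 in the knockout. Of 10 trophoblast genes tested these counts were 5 and 6.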

How the data were processed

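RNA of 8 samples was hybridised to one-colour Agilent arrays, and the images were read with Agilent Feature Extraction (version 11.5.1.1 per the file headers). The deposited values used are the processed signal intensity of each spot, already background-subtracted by the authors' scanner software, and other columns of 0 and 1 flags (well above background, saturated, outlier) that the authors deposited with it. A genome build for the array design: not given in the sources used here.

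Signals were set to log2 and each array's 75th percentile over non-control spots was subtracted. Spots of a probe were averaged and outlier flags left out. Probes were named by RefSeq accession: 28020 of 55681 probes named 21150 genes, and 27661 stayed unnamed. Of several probes of a gene, the brightest on average was tested. limma 3.58.1 in R 4.3.3 (lmFit, eBayes, Benjamini-Hochberg over 15178 genes) was fitted to 4 group means (4 residual degrees of freedom) and, for pool differences, to 4 pools with an OHT term per genotype (2 residual degrees of freedom). Scripts were tested on simulated data.

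The 7 genes and all lists were chosen with earlier results of these data known. Named genes are these 7, the 2 most alike of each, the extremes of each list, the nearest tested genes on either side, and Erf. Relatives and markers come from lists kept whole whatever their values. The result of 1 marker list is not reported here.

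The pools pair the samples, since the labels give the same pool with and without OHT. Deviations from the group means of same-pool arrays correlated at 0.658 for ERF-WT and 0.443 for ERF-KO. Alternatives were normexp, quantile normalization, other filters, pool or slide as a block, masks for dark areas, other variance settings and leaving out each array. The series value table was not used here.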

Additional observations from a re-analysis of the deposited data

Results flagged for a closer look

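These genes went opposite ways after OHT in the 2 genotypes, every wild type pool to one side and every labelled knockout pool to the other. The difference was not tested in any of them. Other tested relatives, not named here, also went opposite ways in this sense. The share of all genes that did so was not counted. Piwil2, next to Slc39a14, was lower in A1 and B1 (-1.18 and -1.31) and slightly higher in A2 and B2 (0.13 and 0.23), so that knockout minus wild type was 1.43. Ren1 differed by 1.9, with -0.48 and -0.15 in the wild type pools and 0.25 and 2.91 in the knockout pools, so the size rests on B2, whose untreated array was the only one not well above background. For 2610528A11Rik, next to Cdhr1, the difference was -0.35, with 0.19 and 0.32 against -0.11 and -0.07, on a probe that read well above background on 5 of 8 arrays. Groups had 2 arrays each, so no sample was set against the rest of its group.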

How the results depend on the processing

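Of the values of the 7 genes under all alternatives, 550 kept direction and side of the threshold, 23 moved beyond the spread of replicates, 13 came to pass, 10 ceased to pass and 9 reversed. The reversals concern differences near zero or other probes. Aqp3 in A1 minus B1 was 0.03 with quantile normalization and -0.15 to 0.05 when each array was left out, and Lrrc15 in A1 minus B1 was -0.20 to 0.18. The Ncam1 genotype difference was -0.33 to 0.15 with each array left out and 0.82 on probe A_55_P2050602. On probe A_55_P2028942, Ncam1 was at -0.31 for A2 minus B2 and -0.13 for A1 minus B1. Ncam1 in A2 minus B2 passed with normexp (limma adjusted p = 0.0379) and with trended and robust variance (0.0457).

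Counts of called genes moved more. With the pool as a replicate block alone, no gene passed after OHT in either genotype. The paired fit with low-signal spots left out and trended, robust variance called 2248 genes for ERF-WT and 1199 for ERF-KO, and 2564 and 1542 with small dark areas left out instead, a fit added after the data were seen. Without the block the wild type count was 3 with that variance setting and 6 with only genes above background on all arrays. It was 0 to 29 with each array left out, against 0 to 383 in the knockout and 0 to 359 between genotypes. Between A2 and B2 the count was 4496, 2007 without a filter on dim probes and 0 to 3390 with each array left out. Between A1 and B1 it was 747, then 2588 (normexp), 2633 (above background on all arrays), 31 (no filter), 1673 (low-signal spots left out), 2166 (small dark areas left out), 3666 (trended and robust) and 0 to 49 with each array left out. With normexp the knockout changes of Cdhr1 and Pga5, both on dim probes, were 0.93 and 0.94. The knockout change of Pga5 ran from 0.23 to 3.07 and that of Cdhr1 from 0.75 to 2.95 with each array left out. The causes were not tested. Naming probes by the array's gene symbols was not run, since the files used here name them by accession.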
